A study of Homo sapiens with 24 samples.

Results

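Interferon-response genes, the genes of the receptors, transcription factors and antiviral proteins through which cells answer interferon, were followed in A549 cells exposed to the synthetic glucocorticoid dexamethasone (dex). The 38 genes were taken by name, as known receptors, signalling proteins and targets of type I and type II interferon, with no threshold on their measured values, though earlier results of these data were known when the list was made. All 38 had counts in the deposited table, on 172 transcripts, out of 33087 genes with a row. Of the 38, 30 were among the 15325 genes with enough counts to be tested and 8 were not.

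A549 is a human lung epithelial adenocarcinoma cell line. Cells of the dex groups were exposed to 100 nM dex in ethanol for 1, 3, 5, 7, 9 or 11 h, and cells of the EtOH groups received the same volume of the vehicle, 0.02% ethanol, for the same times. Each of the 12 groups held 2 RNA-seq libraries of polyadenylated RNA, labelled as biological replicates, for 24 in all. No genotype was altered, and the labels name no interferon or virus in any group, so the values describe the expression of these genes without added interferon, in 1 cell line. Libraries held between 6708864 and 13748598 counts. Whether the 2 libraries of a group came from separate cultures is not named in the labels, and p-values measure only the spread between them.

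Type I interferons bind the receptor chains IFNAR1 and IFNAR2, and interferon gamma binds IFNGR1 and IFNGR2. The receptors signal through Janus kinases to STAT proteins and IRF9, which carry the signal to the nucleus and bind the interferon-stimulated response element (ISRE) or the gamma-activated site (GAS) near the start of target genes. The targets include sensors of viral RNA, enzymes such as the OAS proteins that activate RNA decay, and proteins that bind viral RNA or block viral entry. Glucocorticoids act through the glucocorticoid receptor, which binds its own response element, and are known for their anti-inflammatory effect.

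The labels and the cell type were checked first. The 7 established glucocorticoid targets (FKBP5, TSC22D3, PER1, KLF9, DUSP1, SGK1 and ZFP36) were higher with dex at all 6 time points in the fitted value and were called at all of them, except FKBP5 at 1 h. FKBP5, a co-chaperone of the receptor, stood at 372 and 338 counts per 1000000 counts (CPM) in the dex libraries at 5 h and at 26.0 and 26.9 CPM in the EtOH libraries. Keratins KRT8 and KRT18, markers of epithelial cells, had at least 14552 counts in every library. The summed CPM of the epithelial list (KRT8, KRT18, KRT19, EPCAM and CDH1) ran from 3883 to 10581 with dex and from 3255 to 5194 with EtOH. The leukocyte markers PTPRC, CD3E and LILRA4 had at most 3 counts in any library, while CD68 had between 20 and 67 counts and CD14 between 7 and 36. Among fibroblast markers COL1A2 reached 1 count and COL1A1 between 45 and 268. The summed CPM of the leukocyte list ran from 3.57 to 9.37 with dex and from 5.23 to 8.61 with EtOH, and that of the fibroblast list from 6.32 to 23.3 and from 11.6 to 20.5, pooled over the time points. At 5, 7 and 9 h, where most of the calls fell, the fibroblast sum was lower in every dex library (6.32 to 9.56 CPM) than in any EtOH library of those times (15.5 to 20.5 CPM). COL1A1 held most of that sum and was called lower at these times, with log2 fold changes of -1.20, -1.03 and -1.35 (edgeR adjusted p = 1.77e-05, 1.35e-05 and 0.000189), after a rise of 0.57 at 3 h (0.0386). The leukocyte sum was also lower in both dex than in both EtOH libraries at each of 5, 7 and 9 h, and neither CD14 nor CD68 was called at any time point. Of the epithelial markers, KRT8 and KRT18 were called higher from 3 h to 11 h, CDH1 higher at 5 h and 7 h, EPCAM lower at 5, 7 and 9 h and KRT19 lower at 5 h and 9 h. The part of these markers in the results was not tested. Since these are bulk samples, fewer cells that express a gene and less RNA per cell cannot be told apart.

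A RefSeq promoter sequence (250 bases before to 50 after the start site, build GRCh38.p14) was matched for 29 of the 38 genes. IRF2, IRF3, IRF7, IFIT2, OAS2, OASL, MX2, IFITM2 and USP18 had no entry in the promoter set used here, and their promoters were not searched. The ISRE core, searched on both strands as GAAA, any 2 bases and GAAA again, was found in 18 of the 29 promoters (62.1%), against 3.57% of 35116 promoters of the same length. The GAS core TTCNNNGAA, which reads the same on both strands, was found in 9 of 29 (31.0%), against 7.66% of all. The glucocorticoid receptor element, searched as GNACA, any 3 bases and TGTNC and also its own reverse complement, was found in 0 of 29 and in 0.390% of all promoters. GAS and ISRE matches overlapped in IFITM1, BST2 and IFI27, and 2 ISRE matches shared a GAAA in IFIH1, BST2 and ISG15. These matches are of letters only.

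The ISRE matches of the genes that changed with dex at consecutive time points are shown because genes that rose (IFIT1, IFIT5) and genes that fell (OAS3, PARP14, SAMD9) carry the same core. Each is 30 bases of GRCh38.p14, printed 5′ to 3′ on the strand on which the core starts with GAAA, with the core in capitals. For each gene with several matches the one nearest to the start site is shown.
IFIT1 (chr10:89392510-89392539, minus strand): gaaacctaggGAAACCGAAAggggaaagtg
IFIT5 (chr10:89414554-89414583, minus strand): cgagcgctcaGAAACTGAAActtaagaaat
OAS3 (chr12:112938452-112938481, plus strand): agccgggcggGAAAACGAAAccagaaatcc
PARP14 (chr3:122680800-122680829, plus strand): tccaggaaacGAAAGCGAAAgagtcaaagt
SAMD9 (chr7:93118096-93118125, minus strand): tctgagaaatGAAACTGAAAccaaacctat
Promoters of IFNGR1, STAT2, PARP9 and OAS1, which also changed at consecutive time points, held no ISRE match, and the one of OAS1 held a GAS match. By class, an ISRE match was present in 2 of 5 promoters of genes that rose, in 3 of 4 of genes that fell, in 2 of 4 of genes called but not at consecutive time points, in 6 of 10 of tested genes never called and in 5 of 6 of genes with too few counts to test.

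**Figure D1:**
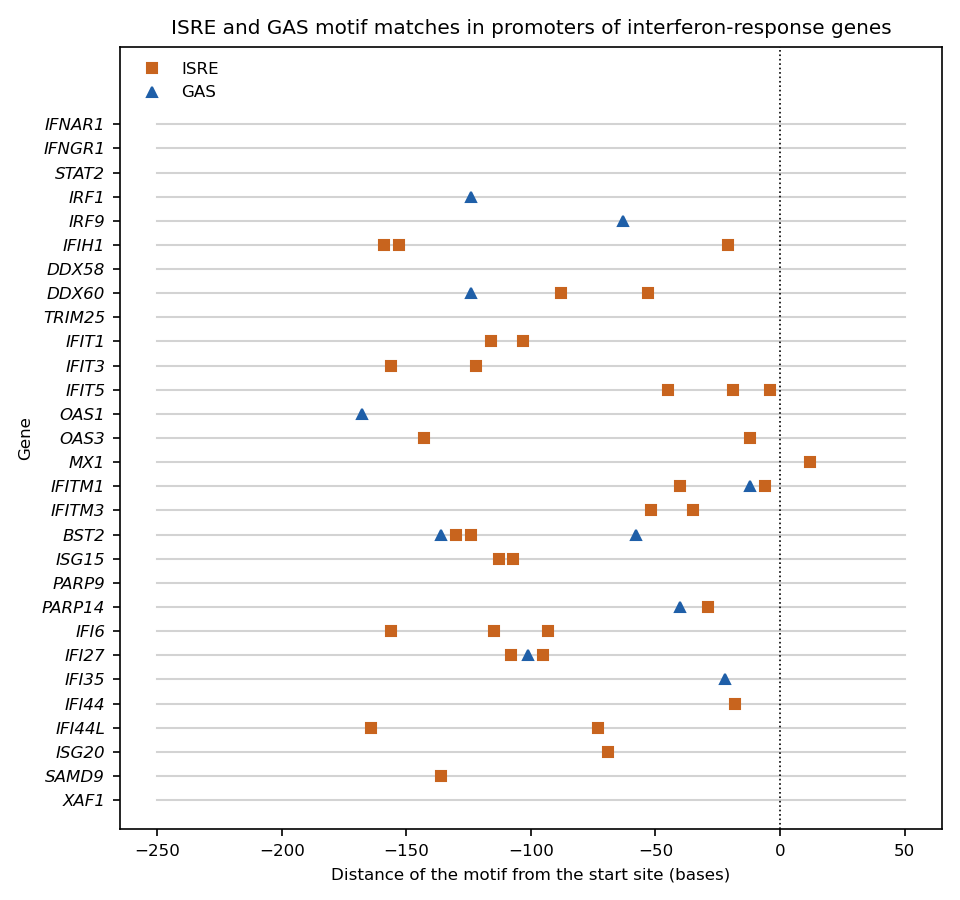
Matches of the ISRE (squares) and GAS (triangles) cores along the 29 promoters (grey lines, from 250 bases before to 50 after the start site), with distance from the start site in bases on the x axis and genes on the y axis. In IFIT1 and IFIT5 as in OAS3, PARP14 and SAMD9 at least 1 square is present, and IFNGR1, STAT2 and PARP9 have neither symbol.

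Levels differed widely between the genes. Per length, as transcripts per 1000000 transcripts (TPM) computed from the counts, OAS3, an enzyme of the 2-5A synthetase family, was the most abundant with EtOH (median 49.5 TPM, range 42.1 to 55.7 over 12 libraries). IRF3, the transcription factor activated by viral RNA sensing, followed with a median of 43.7 TPM (36.4 to 54.2) and IFNGR1, the ligand-binding chain of the interferon gamma receptor, with 43.2 TPM (37.0 to 50.9). TRIM25, a ubiquitin ligase of RNA sensing, was next at 41.6 TPM (38.2 to 45.8). These 4 neighbours in the order overlapped in their ranges. IFITM2 had a median of 27.6 TPM and OAS1 26.8 TPM, and their ranges did not reach that of the 4 genes above.

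Several genes that are widely used as readouts of interferon had low levels or next to no counts. IFIT1 had a median of 1.49 TPM, IFIT2 of 0.594 TPM, MX1 of 0.499 TPM and ISG15 of 8.79 TPM with EtOH. The 8 genes with too few counts to test were OAS2 (at most 3 counts in any library), MX2 (at most 2), BST2 (at most 2), IFI27 (at most 1), IFI44 (at most 5), IFI44L (at most 11), IFITM1 (at most 10) and XAF1 (at most 10). Of all counts, 0.0555% to 0.0627% in a library fell on the 38 genes. For IFITM1 and IFITM2, 32.9% and 33.6% of the 50-base words of their transcripts also occur in other genes on the same strand, chiefly in each other, and reads from these words cannot be assigned to 1 of them.

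**Figure D2:**
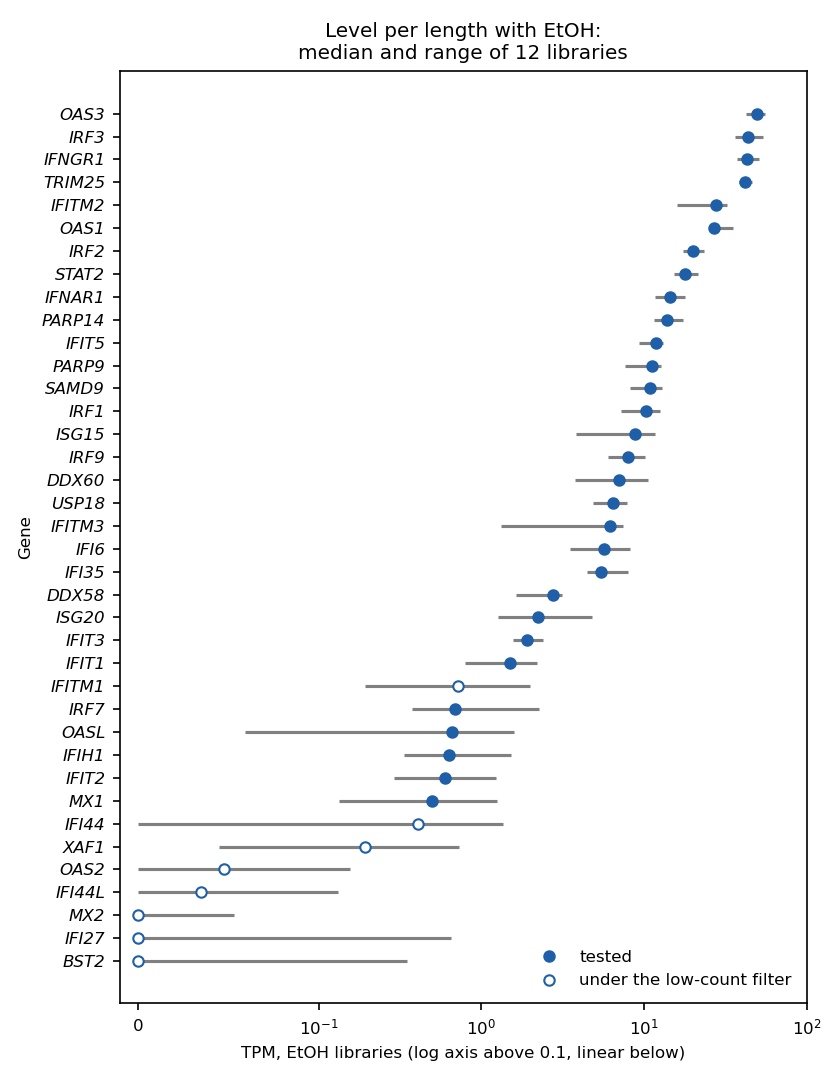
Level per length (TPM) of the 38 genes in the 12 EtOH libraries. Points are medians, lines run from the lowest to the highest library, open points mark genes with too few counts to test, and the x axis is logarithmic above 0.1 and linear below. OAS3, IRF3, IFNGR1 and TRIM25 lie highest, with medians between 41.6 and 49.5 TPM, and MX2, IFI27 and BST2 have a median of 0.

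Each time point was tested by itself, 2 dex against 2 EtOH libraries, with edgeR's quasi-likelihood test, and a gene was called at a Benjamini-Hochberg adjusted p of at most 0.1 over all 15325 genes. At 1 h no interferon-response gene was called (4 had an unadjusted p under 0.05, and DESeq2, run as an alternative, called 0), and 1.06% of all tested genes were, 0.639% higher and 0.418% lower. With the replicate number as a block, 1 was called higher and 1 lower at 1 h, beside 584 of all 15325 genes. At 3 h, 4 of 30 were called, 1 higher and 3 lower, where 14.1% of all genes were called, 8.47% higher and 5.66% lower. At 5 h, 6 were higher and 3 lower, and 25.0% of all genes were called, 12.4% higher and 12.6% lower. At 7 h, 6 were higher and 5 lower, beside 28.2% of all genes, 14.7% higher and 13.5% lower. At 9 h, 3 were higher and 7 lower, beside 19.8% of all genes, 10.8% higher and 8.97% lower. With the replicate number as a block, 5 were higher and 8 lower at 9 h, beside 4389 of all 15325 genes. In 1 fit over all 24 libraries 5 were higher and 7 lower at 9 h, beside 3487 of all genes. At 11 h, 2 were higher and 1 lower, beside 9.13% of all genes, 5.80% higher and 3.33% lower. As shares of the 30, the calls were 36.7% at 7 h and 33.3% at 9 h. The share exceeded that of all genes by the most at 9 h, and the 2 shares were not tested against each other. The genes called lower at 3, 5 and 9 h include OASL, which had enough counts to be tested only through its EtOH libraries. A rise was hardly open to it, so the calls at these times cannot be read against the share of all genes.

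The direction of change was mixed at every time point with calls. The median log2 fold change of the 30 genes was -0.07 at 1 h, 0.08 at 3 h, -0.01 at 5 h, 0.04 at 7 h, -0.33 at 9 h and -0.0030 at 11 h, while that of all genes lay between -0.01 and 0.01. At 9 h, genes rich in G and C were lower across the whole transcriptome: the median log2 fold change fell from 0.12 in the fifth of genes with the lowest G+C content to -0.18 in the fifth with the highest. At 3 h the same medians ran the other way, from -0.11 to 0.16. With an offset for this trend in each library, chosen after the data were seen, 11 interferon-response genes were called at 9 h, 3 higher and 8 lower, beside 3068 of all 15325 genes, and 5 at 3 h, beside 2093 of all genes.

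Counts of calls were also taken without single libraries, each time in 1 fit over the other 23 libraries. Such a fit leaves 1 library in a group. The calls over all genes in those fits are not given, so a loss in these genes cannot be told from a general loss. The fit of that form over all 24 called 0 genes at 1 h, 4 at 3 h, 8 at 5 h, 10 at 7 h, 12 at 9 h and 5 at 11 h, beside 189, 1700, 3451, 3074, 3487 and 2472 of all 15325 genes. Without 1 library, 2 genes were called at 3 h without either dex library of 3 h or without EtOH replicate 1, and at 5 h, 4 were called without dex replicate 2 and 3 without EtOH replicate 2. At 7 h, 3 were called without dex replicate 1, 7 without dex replicate 2 and 5 without EtOH replicate 1, and at 1 h, 1 was called without EtOH replicate 1.

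In all, 10 genes were called in the same direction at 2 or more consecutive time points, 5 higher (IFNGR1, STAT2, IFIT1, IFIT5 and PARP9) and 5 lower (OAS1, OAS3, OASL, PARP14 and SAMD9). They were 33.3% of the 30 tested, and 20.2% of all tested genes met the same rule, 10.7% higher and 9.47% lower. OASL, counted among the 10, had enough counts to be tested only through its EtOH libraries, so a rise was hardly open to it. Another 6 genes were called without meeting the rule, and 14 were never called. Of the 30, 53.3% were called at 1 or more time points, as were 44.5% of all genes. DESeq2 kept IFNGR1 among the 5 that rose and OAS1 and OAS3 among the 5 that fell. In 1 fit over all 24 libraries 4 rose (IFIT5 was lost) and 5 fell. In fits over 23 libraries 3 rose without dex or EtOH replicate 1 of 7 h, and 3 fell without either dex library of 3 h, EtOH replicate 1 of 3 h, EtOH replicate 2 of 5 h, dex replicate 1 of 7 h or EtOH replicate 1 of 9 h.

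**Figure D3:**
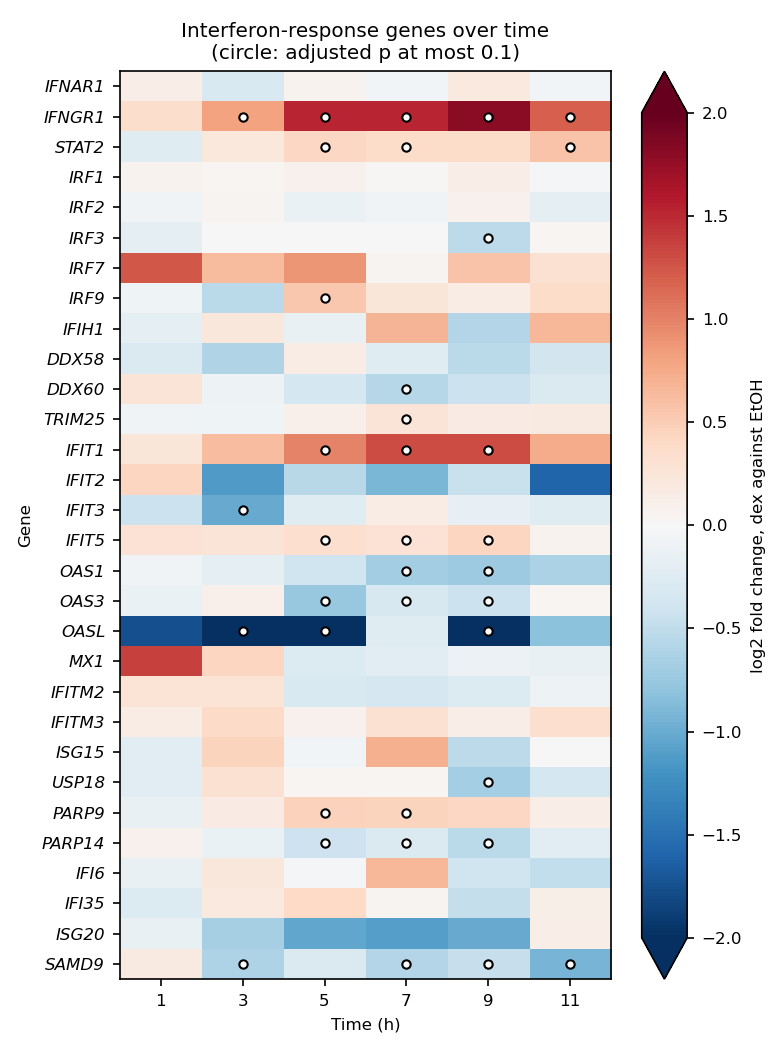
Log2 fold change of dex against EtOH (colour, red higher with dex, clipped at 2) for the 30 tested genes (rows, by role from receptors at the top) at 6 time points (columns, h). Circles mark an adjusted p of at most 0.1. IFNGR1 has 5 circles, from 3 h to 11 h, SAMD9 has 4, IFIT1, IFIT5, STAT2, OAS3, OASL and PARP14 have 3 each, PARP9 and OAS1 have 2, 6 genes have 1 and 14 have none.

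Of the receptor chains, IFNGR1 rose and IFNAR1 was not called at any time point. IFNGR1 (chr6:137197484-137219449 of GRCh38, minus strand) stood at 111 and 118 CPM in the dex libraries at 5 h and at 41.1 and 39.6 CPM in the EtOH libraries. The dex libraries lay above the EtOH libraries at all 6 time points, and the EtOH libraries stayed between 36.9 and 48.6 CPM throughout. The log2 fold change was 0.35 ± 0.13 (SE) at 1 h, 0.81 ± 0.12 at 3 h, 1.52 ± 0.11 at 5 h, 1.52 ± 0.10 at 7 h, 1.80 ± 0.11 at 9 h and 1.19 ± 0.16 at 11 h (edgeR adjusted p = 0.522 at 1 h and 3.33e-15 at 5 h). The 3.49-fold rise at 9 h was the highest fitted value of the 30 genes at any time point. From 3 h on the rise was called in every alternative tried and without any 1 library of its time point. IFNAR1, a chain of the type I receptor, had log2 fold changes between -0.30 and 0.20, with a smallest edgeR adjusted p of 0.153.

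The summed CPM of the 38 genes ran from 569.4 to 639.1 (median 598.9) in the 12 dex libraries and from 554.3 to 589.1 (median 567.1) in the 12 EtOH libraries. Without IFNGR1 the order of the medians turned, with 475.6 to 536.0 (median 503.2) with dex and 509.7 to 550.1 (median 528.0) with EtOH. These ranges, pooled over the time points, overlapped, but within single time points the libraries mostly did not. At 3, 5, 7, 9 and 11 h both dex libraries were above both EtOH libraries in the sum of 38. Without IFNGR1, the gene with the highest fitted rise, both dex libraries were below both EtOH libraries at 5, 7, 9 and 11 h. At 5 h they were at 491.6 and 478.9 CPM against 526.9 and 530.2 CPM. The gap in OAS3 alone was about as large at 5 h, with 72.1 and 66.7 CPM with dex and 113 and 124 CPM with EtOH. At 11 h the order was the same, with 505.0 and 506.3 CPM against 517.3 and 516.8 CPM, while the groups of OAS3 overlapped. IFNGR1 was left out because of its rise in these same data, which by itself moves the dex sums down. The order of the sums without it therefore shows no fall of the remaining genes in general. These sums were not tested.

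Among the transcription factors, STAT2, the partner of IRF9 in the factor that binds the ISRE, rose modestly. It stood at 31.3 and 33.7 CPM with dex and 27.7 and 21.8 CPM with EtOH at 5 h, and at 27.9 and 30.2 CPM with dex and 19.3 and 20.2 CPM with EtOH at 11 h. Dex libraries were above EtOH libraries from 3 h on and below them at 1 h. The log2 fold change was 0.41 ± 0.14 (edgeR adjusted p = 0.0257) at 5 h, 0.37 ± 0.11 (0.0156) at 7 h and 0.57 ± 0.17 (0.0719) at 11 h. At 9 h, with 0.36 ± 0.14, it did not pass (edgeR adjusted p = 0.121), but with the offset for G+C content it did, at 0.41 (edgeR adjusted p = 0.0462). The call at 5 h was lost without dex or EtOH replicate 2 and the one at 7 h without any 1 of the 4 libraries.

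IRF9 and IRF3 were each called once. IRF9 was higher at 5 h (7.06 and 8.75 CPM with dex, 5.85 and 5.16 CPM with EtOH, log2 fold change 0.54 ± 0.23, edgeR adjusted p = 0.0958), a call that was lost without dex replicate 2 or either EtOH library. At 3 h both dex libraries of IRF9 were below both EtOH libraries, with a log2 fold change of -0.55 that was not called, and with the offset for G+C content it was called there, at -0.64 (edgeR adjusted p = 0.0889). Of its 50-base words, 72.6% also occur in the overlapping gene AL136295.5, and reads from these words cannot be assigned to 1 of the 2 genes. IRF3 was lower at 9 h, with 21.0 and 22.3 CPM with dex and 30.2 and 33.3 CPM with EtOH (log2 fold change -0.52 ± 0.14, edgeR adjusted p = 0.0237). Its dex libraries at 9 h lay within the range of the other 10 dex libraries (20.3 to 27.4 CPM), and its EtOH libraries at 9 h lay above that of the other 10 EtOH libraries (21.0 to 27.3 CPM). IRF3 belongs to the fifth of genes with the highest G+C content, and with the offset for G+C content its log2 fold change at 9 h was -0.38 (edgeR adjusted p = 0.0542). With the single transcript with the most counts the call was lost, at -0.16 (edgeR adjusted p = 0.799).

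IRF1 and IRF2, which bind the same element, were never called, with log2 fold changes between -0.02 and 0.13 and between -0.19 and 0.08. IRF7, the factor that amplifies type I interferon, had 3 to 14 counts in a library. Its log2 fold change was above 0 at all 6 time points, from 0.06 to 1.24, with no edgeR adjusted p under 0.420.

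Of the genes of cytosolic RNA sensing, IFIH1 (MDA5) and DDX58 (RIG-I), the 2 sensors, were never called. DDX60, a helicase of the same pathway, was lower at 7 h, with 6.13 and 7.66 CPM with dex and 11.8 and 8.62 CPM with EtOH (log2 fold change -0.57 ± 0.20, edgeR adjusted p = 0.0375). TRIM25 was higher at 7 h, with 114 and 117 CPM with dex and 96.9 and 97.8 CPM with EtOH (log2 fold change 0.26 ± 0.08, edgeR adjusted p = 0.0160). In both the groups did not overlap at 7 h, and neither gene was called at another time point. Both calls were lost in fits without single 7 h libraries: DDX60 without dex or EtOH replicate 1, and TRIM25 without any 1 of the 4. With the G+C offset DDX60 was also called lower at 9 h, at -0.53 (edgeR adjusted p = 0.0767), and it met the rule of consecutive time points there and in the fits without dex replicate 1 or 2 of 11 h or EtOH replicate 2 of 7 h.

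**Figure D4:**
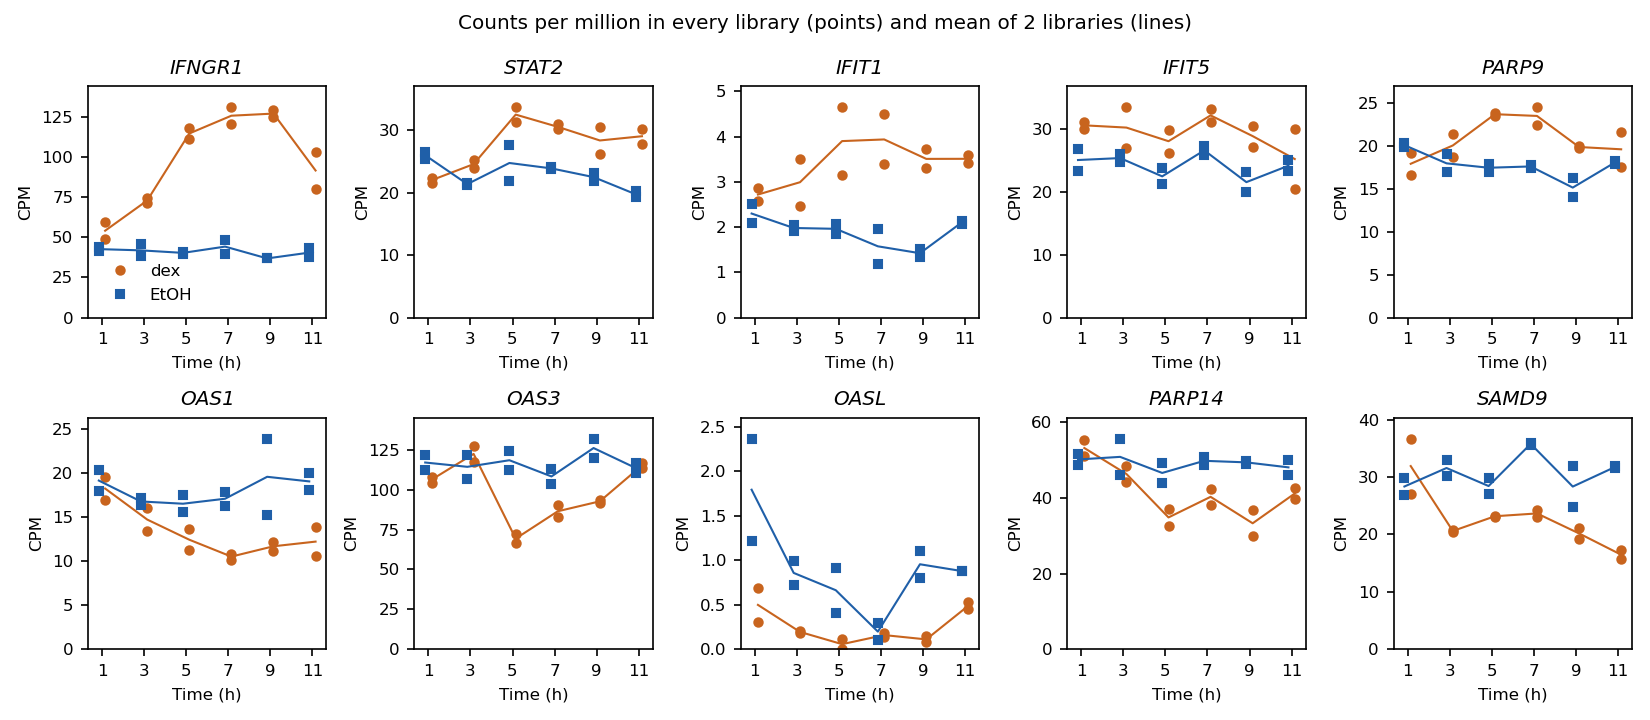
CPM (y axis, from 0) of the 10 genes called in the same direction at consecutive time points, by time (x axis, h). Circles are dex libraries, squares are EtOH libraries and lines join the means of the 2 libraries. The top row shows genes that rose, with IFNGR1 at 80.2 CPM or more with dex at 5 h and later, and the bottom row genes that fell, with OAS3 lowest at 5 h.

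Of the IFIT family, proteins that bind viral RNA and whose genes lie side by side on chromosome 10, IFIT1 and IFIT5 were called higher, IFIT3 was called lower once and IFIT2 was not called. Differences between these genes were not tested. IFIT1 stood at 3.39 and 4.49 CPM with dex at 7 h and at 1.19 and 1.96 CPM with EtOH. Its dex libraries were above the EtOH libraries at all 6 time points, at 17 to 44 counts with dex and 12 to 35 with EtOH. The log2 fold change was 0.99 ± 0.32 at 5 h, 1.302 ± 0.34 at 7 h and 1.3015 ± 0.33 at 9 h, called at each (edgeR adjusted p = 0.0220, 0.00420 and 0.0185). IFIT5 was at 30.5 and 27.1 CPM with dex and at 23.04 and 19.96 CPM with EtOH at 9 h, where the log2 fold change was 0.43 ± 0.15 (edgeR adjusted p = 0.0691). Dex libraries of IFIT5 were above EtOH libraries from 1 h to 9 h, and the groups overlapped at 11 h.

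The calls of IFIT5 at 5, 7 and 9 h had adjusted p-values between 0.0636 and 0.0949, and in the fit over all 24 libraries those at 5 h and 7 h were lost. With the G+C offset IFIT5 was called at 5 h and 7 h (edgeR adjusted p = 0.0429 and 0.00673) and also at 3 h, at 0.37 (0.0567). The call at 9 h was lost without dex replicate 1 or 2 or EtOH replicate 2 and with the G+C offset. The call of IFIT1 at 5 h was lost without dex replicate 2. IFIT3 was called at 3 h alone, where it was lower, with 1.24 and 1.26 CPM with dex and 2.36 and 2.65 CPM with EtOH (log2 fold change -1.0006 ± 0.37, edgeR adjusted p = 0.0935). That call was lost without any 1 library of 3 h and with the G+C offset. IFIT2 had 4 to 20 counts in a library and log2 fold changes from -1.60 to 0.42, with no call.

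Of the 4 OAS genes, 3 were tested. OAS1 and OAS3 fell at consecutive time points, as did 9.47% of all genes, and the difference was not tested. OASL was also called lower at consecutive time points, but it had enough counts to be tested only through its EtOH libraries (up to 2.37 CPM, at most 0.692 with dex). A rise was hardly open to it, so it is not set beside that share. The OAS enzymes sense double-stranded RNA, and OAS1, OAS3 and OAS2 lie next to each other on chromosome 12. OAS3 (chr12:112938352-112973249, plus strand) stood at 72.1 and 66.7 CPM with dex at 5 h and at 113 and 124 CPM with EtOH. It had been at 128 and 117 CPM with dex at 3 h, against 107 and 122 CPM with EtOH, where the groups overlapped. At 11 h it was at 114 and 117 CPM with dex and at 117 and 110 CPM with EtOH, again overlapping.

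The log2 fold change of OAS3 was -0.76 ± 0.11 at 5 h (edgeR adjusted p = 2.56e-07), -0.31 ± 0.09 at 7 h (0.00692), -0.43 ± 0.11 at 9 h (0.0188) and 0.03 ± 0.13 at 11 h (0.938). The call at 7 h was lost without dex replicate 1 or EtOH replicate 2. The change of the dex effect between 5 h and 11 h was tested itself, in 1 fit over all 24 libraries. OAS3 was the only interferon-response gene called in that test, with a difference of 0.79 ± 0.14 on the log2 scale (edgeR adjusted p = 0.00166), and 3.03% of all genes were called. With the G+C offset, with at least 10 counts required in every library, or without dex replicate 1 or 2 of 1 h, EtOH replicate 1 or 2 of 9 h or dex replicate 1 of 11 h, 2 of the genes were called in it.

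OAS1 was called lower at 7 h and 9 h. It was at 10.2 and 10.8 CPM with dex and at 16.3 and 17.8 CPM with EtOH at 7 h, and at 12.2 and 11.2 CPM with dex and 15.2 and 23.9 CPM with EtOH at 9 h. Its dex libraries were below the EtOH libraries from 3 h to 11 h. The log2 fold change was -0.69 ± 0.16 at 7 h (edgeR adjusted p = 0.000926) and -0.73 ± 0.21 at 9 h (0.0364). At 5 h and 11 h it was -0.39 and -0.63, with edgeR adjusted p-values of 0.111 and 0.110. With the G+C offset OAS1 was also called at 11 h, at -0.67 (edgeR adjusted p = 0.0217). Without dex replicate 1 the call at 7 h was lost, and without EtOH replicate 2, the library at 23.9 CPM, the one at 9 h.

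OASL, an OAS-like protein without the enzyme's activity, was scarce, and its values are given as counts. At 3 h it had 2 and 2 counts with dex and 7 and 12 with EtOH, at 5 h it had 0 and 1 with dex and 4 and 11 with EtOH, and at 9 h it had 1 and 1 with dex and 9 and 11 with EtOH. Dex libraries were below EtOH libraries at these times, and the groups overlapped at 7 h, with 2 and 1 against 1 and 3 counts. It was called lower at 3, 5 and 9 h (edgeR adjusted p = 0.0643, 0.0216 and 0.0221). It did not meet the rule of consecutive time points with DESeq2 or with 1 transcript per gene. Nor did it without a filter on low counts or with at least 10 counts required in every library. Scaled to the library totals, the EtOH value was 4.60 times the dex value at 3 h (95% interval 1.53 to 18.6, exact binomial, for counting error only) and 10.1 times at 9 h (2.45 to 88.9). The call at 3 h was lost without any 1 library of 3 h, and that at 5 h without dex replicate 1 or EtOH replicate 2. At 1 h OASL had 14 and 33 counts with EtOH and 9 over both dex libraries, and it was not called. The EtOH value there was 3.54 times the dex value (95% interval 1.72 to 8.23, exact binomial, counting error only). At 11 h it had 11 counts over both dex libraries and 15 over both EtOH libraries. Among the EtOH libraries alone OASL had the smallest adjusted p of the 30 genes over time (edgeR, 0.157).

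PARP9 and PARP14, interferon-induced proteins of the ADP-ribosyltransferase family whose genes lie near each other on chromosome 3, moved in opposite directions. PARP9 was at 23.9 and 23.5 CPM with dex and at 17.9 and 17.0 CPM with EtOH at 5 h. PARP14 was at 37.0 and 32.7 CPM with dex and at 43.9 and 49.4 CPM with EtOH at the same time. The groups of neither gene overlapped at 5, 7 or 9 h. PARP9 had log2 fold changes of 0.46 ± 0.15 at 5 h and 0.44 ± 0.13 at 7 h (edgeR adjusted p = 0.0225 and 0.0117), and PARP14 of -0.41 ± 0.13, -0.29 ± 0.10 and -0.54 ± 0.14 at 5, 7 and 9 h (0.0146, 0.0419 and 0.0179). With the single transcript with the most counts in place of the sum, neither was called at 5 h or 7 h. PARP14 lost its call at 7 h without any 1 library of that time and at 5 h without dex or EtOH replicate 2. PARP9 lost its call at 7 h without dex or EtOH replicate 1 and at 5 h without EtOH replicate 2. The difference in direction between the 2 genes was not tested.

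SAMD9, an antiviral factor that restricts poxviruses, was called lower at 4 time points, more than any other of the 30. It was at 20.7 and 20.4 CPM with dex and at 30.1 and 33.0 CPM with EtOH at 3 h, and at 15.7 and 17.2 CPM with dex and 31.9 and 31.6 CPM with EtOH at 11 h. Dex libraries were below EtOH libraries from 3 h on and overlapped them at 1 h. Its log2 fold change was -0.61 ± 0.14 at 3 h (edgeR adjusted p = 0.00256), -0.29 ± 0.14 at 5 h (0.152), -0.59 ± 0.11 at 7 h (0.000126), -0.47 ± 0.16 at 9 h (0.0694) and -0.93 ± 0.17 at 11 h (0.00424). The call at 9 h was lost without dex or EtOH replicate 1.

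Of the ISG15 system, ISG15, the ubiquitin-like modifier, was never called and moved by 0.72 on the log2 scale at 7 h and -0.52 at 9 h. USP18, the protease that removes it, was lower at 9 h, with 4.72 and 5.32 CPM with dex and 8.27 and 8.26 CPM with EtOH (log2 fold change -0.68 ± 0.22, edgeR adjusted p = 0.0566). The other 10 EtOH libraries of USP18 lay between 5.36 and 7.999 CPM. Of its 50-base words 22.98% occur in USP41 as well. With the G+C offset USP18 was at -0.63 at 9 h (edgeR adjusted p = 0.0625). MX1, IFITM2, IFITM3, IFI6, IFI35 and ISG20 completed the genes that were never called.

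Among the EtOH libraries alone, no interferon-response gene was called as changing over time (edgeR's quasi-likelihood test over the 6 EtOH groups), and 0.0587% of all genes were called. An unadjusted p under 0.05 was found for 3 of the 30 and for 12.1% of all genes. Without either dex library of 11 h, 1 was called. Between 1 h and 5 h the dex effect changed in 5 of the 30 genes (all genes: 13.6%), which were IFNGR1, STAT2 and PARP9 upward and OAS3 and PARP14 downward. Without EtOH replicate 2 of 1 h, 3 were called in that test, and without EtOH replicate 2 of 5 h, 2.

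Other genes of the interferon pathway were taken from a list of 83, of which 82 had a row and 71 were tested. IKBKE had no row. None was called at 1 h (2 had an unadjusted p under 0.05). Over the 6 time points 12 of the 71 were called higher and 4 lower at 2 or more consecutive time points, together 22.5%, against 20.2% of all genes. The 12 include SOCS1 and EPSTI1, which had enough counts to be tested only through their dex libraries. Of the interferons on the list, IFNB1 had 3 counts over all 24 libraries, IFNL1 and IFNL3 had 1 each, IFNL2 had 0, and IFNE, interferon epsilon, was tested and called lower at 7 h.

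Among kinases and negative regulators 6 rose and 1 fell at consecutive time points, of 11 tested, where 10.7% of all genes rose and 9.47% fell. The 6 include SOCS1, which had enough counts to be tested only through its dex libraries (up to 1.53 CPM, at most 0.504 with EtOH). A fall was hardly open to it, so the 6 cannot be read against the share of all genes. SOCS1, an inhibitor of Janus kinases, had 13 and 17 counts with dex at 3 h and 0 and 1 with EtOH. It was called at 3, 5 and 7 h, and scaled to the library totals the dex value at 3 h was 31.0 times the EtOH value (95% interval 5.15 to 1264, exact binomial, counting error only). JAK1, a kinase of both receptors, JAK2, a kinase of the interferon gamma receptor, SOCS3 and PIAS1 fall outside the rule for named genes and were chosen after their values were seen. JAK1 was at 1068 and 927 CPM with dex and at 520 and 530 CPM with EtOH at 5 h, without overlap. Its log2 fold change was 0.94 ± 0.10 (edgeR adjusted p = 7.53e-10), and it was called from 3 h to 11 h.

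JAK2 was called from 5 h to 11 h, with 15.4 and 12.9 CPM with dex and 7.18 and 10.4 CPM with EtOH at 5 h. SOCS3, another inhibitor, was called from 7 h on, with log2 fold changes from 1.08 to 1.23. PIAS1, an inhibitor of STAT proteins, was called from 3 h on, with values from 0.50 to 0.85. IFNAR2 and IFNGR2, the partner chains of the receptors, were not called at any time point.

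Of the further interferon-induced genes 6 of 27 tested rose and 1 fell at consecutive time points, beside the same 10.7% and 9.47% of all genes. The 6 include EPSTI1, which had enough counts to be tested only through its dex libraries (up to 1.57 CPM, at most 0.205 with EtOH). A fall was hardly open to it, so the 6 cannot be read against the share of all genes. HELZ2, a helicase that acts as a coactivator of nuclear receptors, was at 31.5 and 31.9 CPM with dex and at 5.54 and 5.97 CPM with EtOH at 3 h (log2 fold change 2.46 ± 0.17, edgeR adjusted p = 1.46e-11). APOL2, an apolipoprotein L, was at 143 and 139 CPM with dex and at 38.4 and 35.9 CPM with EtOH at 5 h (1.94 ± 0.11, edgeR adjusted p = 8.80e-19). Both were called from 3 h to 11 h, as were APOL1 (0.74 to 1.44) and TRIM14 (0.39 to 1.00). EPSTI1 had 11 and 6 counts with dex and 0 and 0 with EtOH at 5 h, which is at least 6.65-fold higher against a floor of 3 counts in the group.

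Genes that fell at consecutive time points were CGAS, the sensor of cytosolic DNA, HERC5, the ligase that attaches ISG15, the adaptor TRAF3 and the scramblase PLSCR1. CGAS was at 9.01 and 8.42 CPM with dex and at 14.8 and 17.6 CPM with EtOH at 5 h and was called from 3 h to 11 h. HERC5 was at 3.04 and 6.10 CPM with dex and at 11.7 and 10.6 CPM with EtOH at 5 h (log2 fold change -1.27 ± 0.24, edgeR adjusted p = 6.99e-05). Its dex and EtOH libraries did not overlap at 5, 7, 9 or 11 h, and it was called at 5, 7 and 9 h. Of the 18 tested genes of antigen presentation none was called in the same direction at consecutive time points, beside 20.2% of all genes, and 5 were called at 1 or more time points, beside 44.5% of all genes. B2M, the light chain of class I molecules, was at 249 and 281 CPM with dex and at 234 and 243 CPM with EtOH at 5 h (0.17 ± 0.10, edgeR adjusted p = 0.286).

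**Figure D5:**
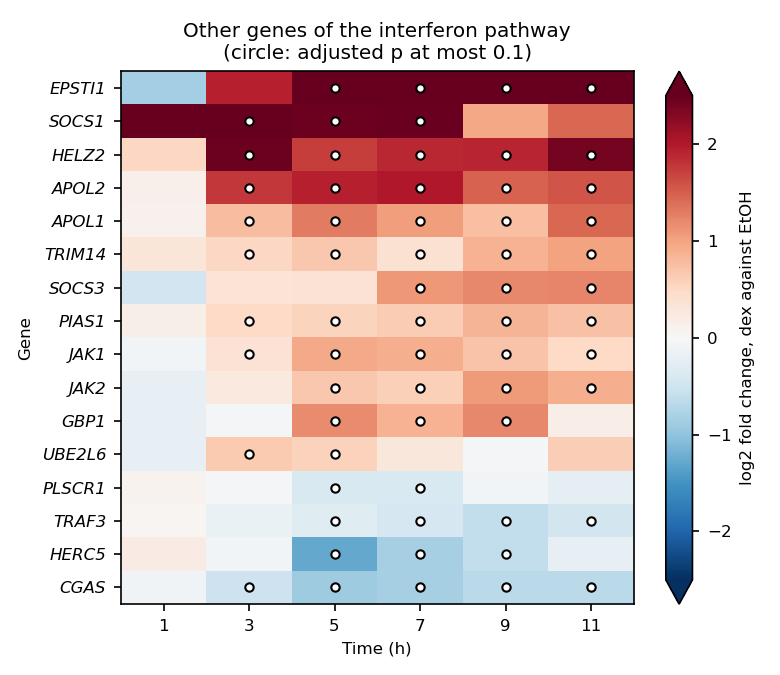
Log2 fold change of dex against EtOH (colour, red higher with dex, clipped at 2.5) at 6 time points (columns, h) for the 16 other pathway genes called in the same direction at consecutive time points (rows, from the highest mean at the top). Circles mark an adjusted p of at most 0.1. HELZ2, APOL2, APOL1 and TRIM14 carry circles from 3 h to 11 h, and the 4 lowest rows hold PLSCR1, TRAF3, HERC5 and CGAS.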

How the data were processed

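Per the labels and the paper's methods, the authors made stranded poly-A libraries from A549 cells, sequenced single-end reads of 50 bases, mapped them to GENCODE transcripts with Bowtie (the labels name the build hg19) and deposited a count of reads per transcript, not divided by library size or length. Reads were counted with samtools idxstats, which gives mapped reads per transcript and has no strand option. How reads matching several transcripts were placed, and whether mapping was limited to 1 strand, is not given in the sources used here. The treatment text of the labels gives 1 h for every library, and the duration field was used. The paper names triplicates where the labels give 2 replicates a group.

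Counts were summed per gene through GENCODE 29 (94.1% of counts had a gene), and coordinates are those of GRCh38 from this annotation or RefSeq. Genes were kept by filterByExpr over the 12 groups. Each time point (4 libraries) was fitted by itself with edgeR 4.0.16 in R 4.3.3 (TMM, quasi-likelihood F-test with robust estimation, Benjamini-Hochberg, threshold 0.1). The EtOH time course and the differences of the dex effect between times used 1 fit over all 24 libraries. CPM are counts per 1000000 after TMM scaling, and standard errors (SE) are the log2 fold change over the square root of its F statistic. Tested on counts simulated for dex against EtOH at 5 h over 15325 genes, the test called 71% of genes altered 2-fold and 95% of those altered 4-fold, and of its 193 calls 14.0% fell on unaltered genes. The biological coefficient of variation lay between 6.49% and 12.7%. With 2 libraries a group, depth and replicate number limit the precision, and intervals on counts and floors cover counting error only.

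Alternatives were DESeq2 1.42.0 and its size factors, other filters on low counts, 1 fit over all libraries, the replicate number as a block, an adjusted p of 0.05, 1 transcript per gene, leaving out each library, and an offset for G+C content chosen after the data were seen. Genes, lists and tests were chosen with earlier results of these data known. Genes were named by rule: all 38, with values for those called at consecutive time points and those called once, the 3 highest per length, and of the other pathway genes up to 6 in each direction by mean log2 fold change among those called at consecutive time points, where the rank of EPSTI1 and SOCS1 rests on fitted values of scarce genes. The interferon genes, IFNAR2, IFNGR2 and B2M were named outside this rule, as were JAK1, JAK2, SOCS3 and PIAS1. A leukocyte marker is not reported here and is not part of the sums.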

Additional observations from a re-analysis of the deposited data

Results flagged for a closer look

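The dex effect differed between time points in 6 tests of the difference itself (edgeR's quasi-likelihood test in 1 fit over 24 libraries, Benjamini-Hochberg adjustment over all genes). Between 1 h and 5 h it changed by 1.16 ± 0.18 (SE) on the log2 scale in IFNGR1 (edgeR adjusted p = 5.03e-05), by 0.64 ± 0.18 in STAT2 (0.0174) and by 0.60 ± 0.19 in PARP9 (0.0477). In STAT2 the fitted effect was -0.24 at 1 h, where it was not called, and 0.41 at 5 h. Over the same interval the dex effect changed by -0.63 ± 0.14 in OAS3 (edgeR adjusted p = 0.00274) and by -0.51 ± 0.17 in PARP14 (0.0573). Between 5 h and 11 h the effect in OAS3 changed back by 0.79 ± 0.14 (edgeR adjusted p = 0.00166). The comparisons at 5 h are shared between the 2 differences, so that those of OAS3 are not independent of each other.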

How the results depend on the processing

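No log2 fold change of a called gene turned its direction under any alternative. Of the 37 calls of a gene at a time point, 12 were kept under every alternative, 37 with DESeq2 size factors, 36 with the replicate block, 35 in 1 fit over 24 libraries, 28 at an adjusted p of 0.05, and 18 of the 34 with a value in DESeq2. The labels tie replicate numbers to no shared culture or day, and the correlation of same-numbered deviations was over 0.1 at 1 h (0.16) and 9 h (0.11) but not at the other time points (down to -0.07), so the numbers were not treated as pairs. With the replicate block, 2 genes were called at 1 h in place of 0, and 5 rose and 5 fell at consecutive time points, the same genes. DESeq2 called 2 genes at 3 h, 3 at 5 h, 6 at 7 h and 5 at 9 h, with 1 that rose and 2 that fell at consecutive time points. At 0.05, 2 were called at 3 h, and 3 fell at consecutive time points. Without a filter on low counts, 2 were called at 3 h, 1 over time with EtOH, and 3 between 1 h and 5 h. With at least 10 counts in every library 2 genes differed between 5 h and 11 h, as with the G+C offset (2). In 1 fit over 24 libraries 5 were called at 11 h. With 1 transcript per gene, 3 rose and 2 fell at consecutive time points. The causes were not tested.

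Each library was left out in turn in 1 fit over the other 23, which over all 24 called 4 genes at 3 h, 8 at 5 h, 10 at 7 h, 12 at 9 h and 5 at 11 h, with 4 that rose and 5 that fell at consecutive time points. This gave 0 to 1 genes at 1 h, 2 to 4 at 3 h, 3 to 7 at 5 h, 3 to 8 at 7 h, 8 to 11 at 9 h and 3 to 4 at 11 h. It gave 3 to 4 that rose and 3 to 6 that fell at consecutive time points, 0 to 1 over time with EtOH, 1 to 2 between 5 h and 11 h, and 2 to 6 between 1 h and 5 h; the lone library left in a group was assumed to vary like the others. Over all genes, DESeq2 called 1208 in place of 2166 at 3 h, 2348 in place of 3838 at 5 h, 2468 in place of 4322 at 7 h and 1834 in place of 3036 at 9 h. The block called 584 in place of 162 at 1 h, the absence of a filter 250 at 1 h, and 1 fit 2472 in place of 1399 at 11 h.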
